A study of Rattus norvegicus with 24 samples.

Results

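The genes described here encode the proteins of the cytosolic ribosome, and the members were picked by symbol. A gene entered when its name was Rps or Rpl followed by a number, with at most 1 of the letters a, x, y or l and 1 further digit, or was Rplp0, Rplp1 or Rplp2. Names of Rps6 kinases and of pseudogenes (-ps) were left out. The rule found 87 of the 30667 genes in the table, 34 for the small and 53 for the large subunit. Of these, 76 had standard names, 7 were paralog names (Rpl3l, Rpl7l1, Rpl10l, Rpl22l1, Rpl39l, Rps4l and Rps27l) and 4 were further copies (Rpl6l, Rpl32l, Rps3a2 and Rps3a3). The symbol rule itself used no measured value, but the family was taken up with earlier results of these data known. All 87 genes passed the filter of a mean of at least 0.5. Rpsa, the laminin receptor of the small subunit, was not caught by the pattern as written and its values are given beside those of the members.

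Expression had been measured by mRNA sequencing in 24 samples of rat lung tissue from a study of lung cancer caused by smoky coal. A sample's name joins 1 of the letters A, B, C and G to a number, 1 to 6, so that each letter has 6 samples and each number has 4, 1 per letter. All 24 carry the same smoky coal label. Strain, age, dose, time and controls are not given in the sources used here, and neither is the meaning of the letters or the numbers, so the question put to each comparison was only whether these genes differed by letter or by number. The labels do not say whether samples came from separate animals, and p-values therefore measure the spread between these samples, which may be technical. Surfactant protein C, the defining product of alveolar type 2 cells, lay between 603887 and 932776 in every sample, and Scgb1a1, the club cell secretory protein, between 303417 and 652541, which matches the lung label. The values are normalized, the depth of sequencing is unknown, and the summed value per sample ran from 61717516 to 66007148.

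A ribosome is built from ribosomal RNA and a fixed set of proteins, most of them needed in a single copy and those of the stalk dimers in more, and growing cells spend much of their transcription on them. Messenger RNAs for these proteins commonly begin with a cytosine followed by a run of pyrimidines, the 5′ terminal oligopyrimidine (TOP) motif, through which the kinase mTORC1 and the RNA-binding protein LARP1 govern their translation and stability. Several ribosomal proteins have further roles. RPL5 and RPL11 bind the p53 regulator MDM2, RPS6 is the substrate of S6 kinases, and RPS27A is made as a fusion to ubiquitin. In mammals most of these genes have many processed pseudogenes, so that short reads from one gene can match several places.

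The first bases of the transcripts are shown because the TOP motif, where a gene has it, lies there. RefSeq promoters of the rat assembly GRCr8 were matched by symbol for 64 of the 87 genes. In each line below, 10 bases before the annotated start are followed by 18 bases of transcript, and capitals mark the unbroken pyrimidine run that begins with a cytosine at the start.
Rps26: ccgccgggtcCTCTTTCgagtcttggct
Rplp0: caccgcacttCTCTCgccaggcgtcctc
Rps7: agagctgtgtCTCTTTCTaagccggcac
Rpl19: ccagcaagctCTTTCCTTTCgctgctgc
Rpl10: gtgggagcgtCTCTTTTCCTCTggcgcg
Rpl37a: cccgttgcgtCTCTTCCTCTTCgggctt
Rps27: cgctttcgctCCTTTCCggcggtgacga
Rps19: cttgtgcgcccgggaaaccccgtcgttc
Rpl3l: ctggtgcctggtggggaggtcccttcct
Rps27l: ttcatttgtcattatttgtggtgtccag
Rpl7l1: cagatgcattgtgggaagcctttaactc
Rpl22l1: gtggatatccggttccgagttgcgcagc
The first 7 have the motif at the annotated start, with runs of 5 bases in Rplp0 to 12 in Rpl10 and Rpl37a, and the last 5, of which 4 are paralogs, do not. On GRCr8 the windows lie at chr7:1643387-1643414 for Rps26 and chr12:46718373-46718400 for Rplp0, both on the minus strand, and at chrX:157205840-157205867 for Rpl10 on the plus strand. That of Rps19 lies at chr1:89608678-89608705 on the plus strand and that of Rps27 at chr2:177964589-177964616 on the minus strand. The paralog windows lie at chr10:14258436-14258463 for Rpl3l, chr8:76443648-76443675 for Rps27l, chr9:21695708-21695735 for Rpl7l1 and chr2:113683186-113683213 for Rpl22l1, all on the plus strand.

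A cytosine at the annotated start followed by at least 4 pyrimidines was found in 23 of the 64 matched genes (35.9%) and in 2.63% of all 33469 promoters in the table. Annotated starts can be off by some bases, and such a run began within 15 bases of the start in 52 of 64 (81.2%), against 39.1% of all promoters. Among motifs searched on both strands of the whole 300-base window, CGGAAG, a core bound by ETS factors, was present in 54.7% of the members and 16.6% of all promoters. GGGCGG, the core of a GC box, was present in 56.2% and 33.1%, CTTTCC in 46.9% and 26.4%, and GATGGCGG, a core bound by YY1, in 12.5% and 1.93%. These counts describe letters in a window and not binding. Rpl38 is shown as an example for its pair of adjacent CGGAAG matches, in capitals, in the 120 bases before its start at chr10:100200315-100200434 on the plus strand.
Rpl38: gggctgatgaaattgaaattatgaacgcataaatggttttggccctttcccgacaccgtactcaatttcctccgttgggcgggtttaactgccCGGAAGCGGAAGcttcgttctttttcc

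The 87 genes together made up between 1.12% and 1.63% of the summed value of a sample, with a median of 1.39% over the 24. All 4 samples numbered 1 had the lowest shares, 1.12% in A1, 1.19% in B1, 1.16% in C1 and 1.21% in G1 (1.17% ± 0.0392, SD, n = 4), and the other 20 samples lay between 1.25% and 1.63%. The highest shares were in A2 (1.63%) and G2 (1.61%), while B2 and C2 had 1.38% and 1.40%, inside the range of numbers 3 to 6. By letter the mean shares were 1.42% ± 0.175 for A, 1.35% ± 0.0938 for B, 1.35% ± 0.124 for C and 1.39% ± 0.129 for G (SD, n = 6), closer to each other than the spread within a letter, and the ranges overlapped. In bulk tissue, fewer cells rich in these mRNAs and less of them per cell cannot be told apart.

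**Figure D1:**
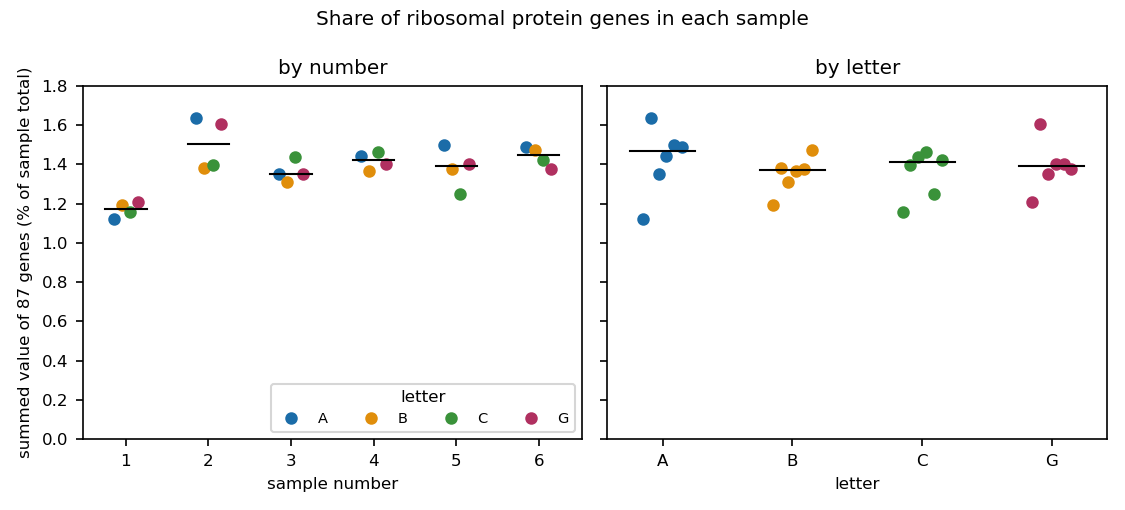
Summed value of the 87 ribosomal protein genes as a percentage of the total of each of the 24 samples, by sample number on the left and by letter on the right, with points coloured by letter and a line at each group's median. The 4 samples numbered 1 lie between 1.12% and 1.21%, below the other 20, while the 4 letters overlap.

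Single genes followed the same division. For a gene of this family a median of 61.9% of the variance of log2(value + 1) over the 24 samples lay between numbers, against 45.2% for all 21922 genes whose mean reached 10, and chance alone would give 21.7%. Between letters the median was 5.19%, against 9.08% over the same genes and 13.04% by chance. Rpl8 had the highest share between numbers (80.8%) and Rpl39l the lowest (14.3%), while Rpl13a had the highest share between letters (47.8%). The genes also varied little in size, with a median SD of 0.15 on the log2 scale against 0.24 over the 21922 genes.

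**Figure D2:**
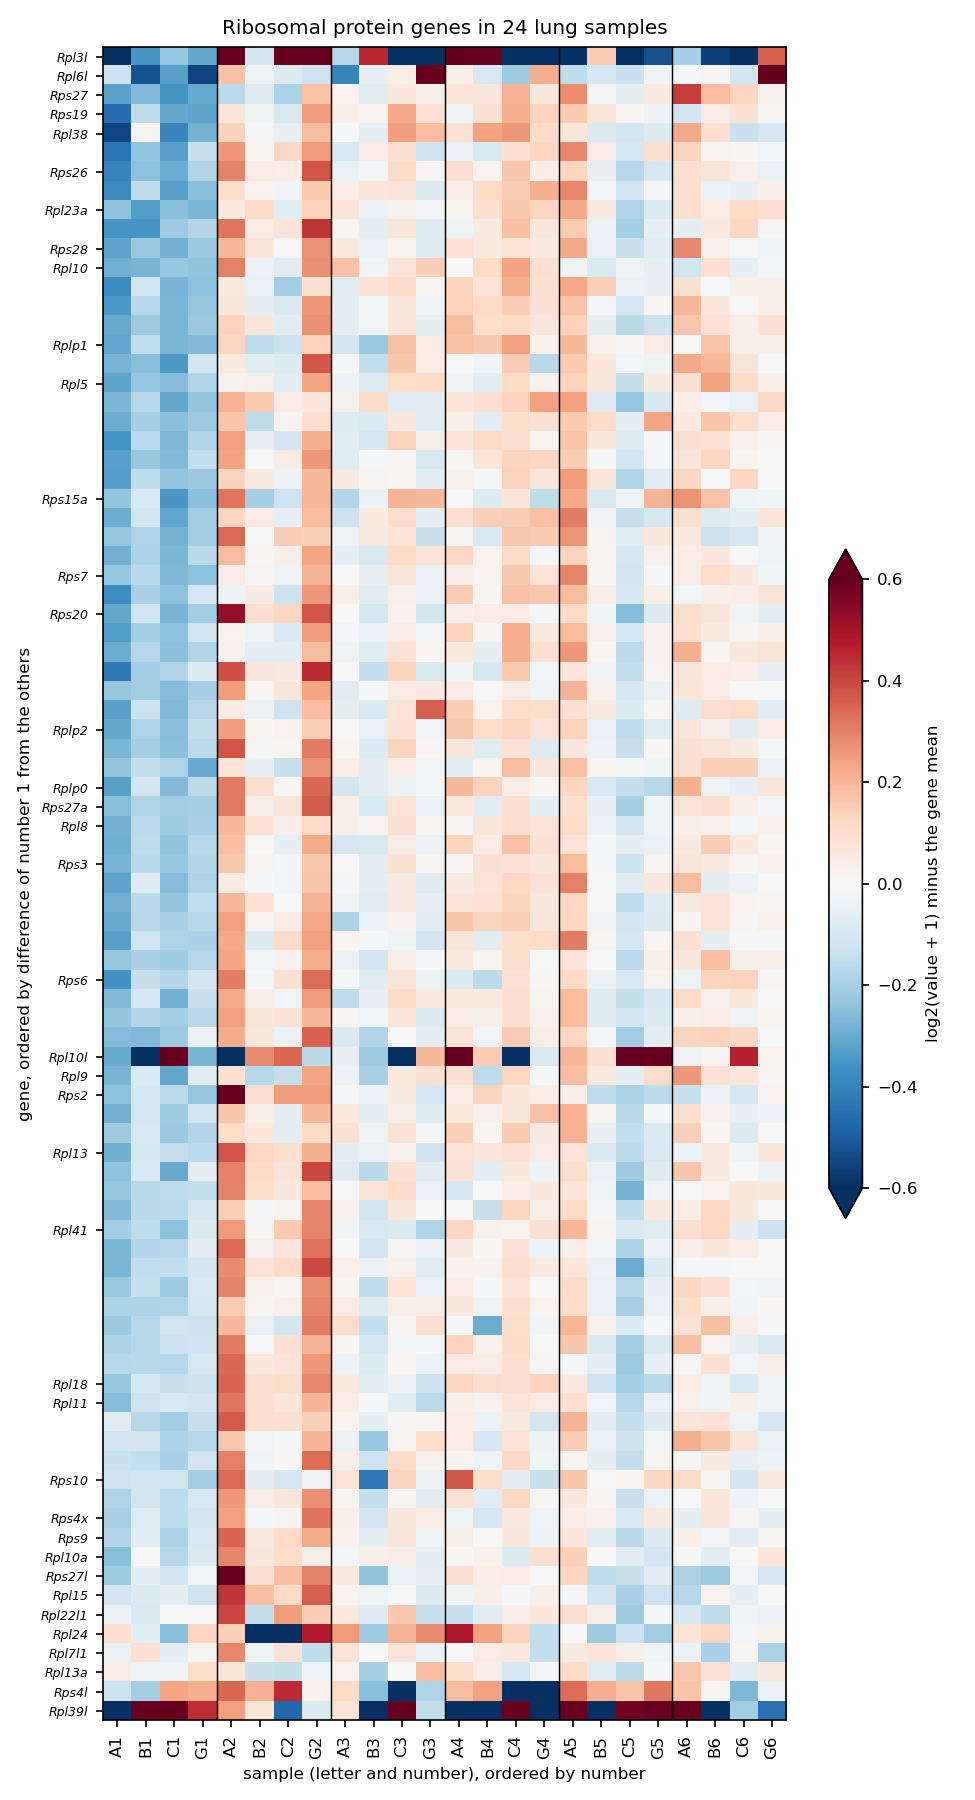
Log2(value + 1) of each of the 87 genes minus its mean over 24 samples, with the samples in columns ordered by number and the genes ordered by the difference of number 1 from the other numbers, labelled only where the text names them. The first 4 columns, numbered 1, are low for nearly every gene, columns A2 and G2 are high for most, and Rpl3l, Rpl10l, Rpl39l, Rpl6l, Rps4l and Rpl24 depart from the rest.

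No ribosomal protein gene passed a test by letter. In limma's F test over the 4 letters with Benjamini-Hochberg adjustment, 0 of 87 had an adjusted p under 0.05 and 0 had an unadjusted p under 0.05, where 0.00652% and 3.91% of all 30667 genes did. In each of the 6 pairs of letters 0 of the 87 passed as well (background 0% in the 3 pairs without G, 0.00652% in G against A, 0.00652% in G against C and 0.00326% in G against B). At an unadjusted p under 0.05 there were 3 in B against A (background 3.58%) and 1 in each of the other 5 pairs, C against A (2.98%), C against B (1.82%), G against A (8.15%), G against B (3.67%) and G against C (4.03%). Median log2 differences of the 87 were -0.06 in B against A, -0.07 in C against A, -0.01 in C against B, -0.02 in G against A, 0.04 in G against B and 0.04 in G against C. The pairing check allows the sample number as a block where B is set against A or C against B. With that block the count was again 0 in all tests. At an unadjusted p under 0.05 there were then 9 and 1 in those 2 pairs, against 3 and 1 without the block. The shares over all genes given above come from the fit without the block and are no background for the blocked counts. Without the block, the variance between numbers, a median of 61.9% for these genes, stays in the spread that letters are tested against. In limma's F test over letters with the block, Rpl27 and Rps25 had the smallest unadjusted p, 0.0255 and 0.0278 (adjusted p = 0.432 and 0.437).

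The letter differences of single genes can be read from 2 of them. Rpl8, an RNA-binding protein of the large subunit close to its catalytic centre, averaged 44307 ± 4781 over letter A, 43677 ± 2654 over B, 43055 ± 3597 over C and 43707 ± 3199 over G (SD, n = 6). Its largest difference, C against A, was -0.04 on the log2 scale with an SE of 0.07. Rpl13a, a large-subunit protein that can also leave the ribosome to silence selected mRNAs, had the smallest p in the F test over letters. That holds for the fit without the block. With the block, Rpl27 and Rps25 had smaller unadjusted p than Rpl13a (0.0555) in limma's F test. Of the summed value of Rpl13a and its pseudogene, 36.1% was under the gene's own name, so its values are uncertain as those of a single gene. Rpl13a averaged 318.8 ± 11.7 over letter A, 290.4 ± 21.2 over B, 283.9 ± 12.5 over C and 310.9 ± 18.1 over G (SD, n = 6). The 6 values of A, from 304.8 to 335.9, lay above the 6 of C, from 269.3 to 300.4, while the other pairs of letters overlapped. The log2 difference of C from A was -0.17 (SE 0.07, unadjusted p = 0.0189), and the adjusted p of its F test was 1.0. Rpl39l, Rpl7l1, Rpl6l and Rpl24 had the next smallest p over letters, from 0.0627 to 0.143 before adjustment.

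By number the picture was different. In limma's F test over the 6 numbers, fitted with the letters as a covariate, 71 of the 87 genes (background 31.5% of all genes) had an adjusted p under 0.05. Each number was then set against the mean of the other 5. In number 1, 73 of 87 were lower and 0 were higher (background 6.25% lower and 5.62% higher), with a median log2 difference of -0.25 against -0.02 for all genes. In number 2, 41 were higher and 0 lower (background 11.5% and 10.3%), with a median of 0.14 against 0.01. Number 3 gave 0 (background 4.98%), number 4 gave 0 (4.74%), number 5 gave 0 (1.97%) and number 6 gave 1, Rps27, which was higher (4.11% of all genes higher, 8.13% in either direction). At an unadjusted p under 0.05, 1, 21, 7 and 8 genes differed in numbers 3, 4, 5 and 6, where 17.4%, 19.4%, 15.3% and 22% of all genes did.

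The count for number 1 moved most with A1, the sample with the lowest share, and was 37 of 87 without it, all lower, and 58 without C1. The count for number 2 rested on A2 and G2. It was 18 without A2, 21 without G2 (20 higher and 1 lower), and 3 (2 higher and 1 lower) without both. With sample quality weights it was 16, and it was 21 when the samples numbered 1 were left out of the comparison. In number 4 the count of 0 became 5 without A5, 3 without A2 or without G2, 1 without C3 and 8 without A2 and G2, all higher. Without the samples numbered 1, the F test over the remaining numbers called 13 of 87. The shares over all genes given above come from the unweighted fit to all 24 samples and are no background for these counts. Whether these counts exceed the share over all genes in the same fits is not shown here.

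The fall in number 1 spread over both subunits. Of the 30 standard-name genes of the small subunit 29 were lower, and of the 46 of the large subunit 42 were lower, with median log2 differences of -0.25 and -0.26. None of the 7 paralogs passed, and 2 of the 4 further copies did. The 73 differences were of like size, from -0.16 in Rps9 to -0.38 in Rps27. The 5 standard-name genes that did not pass were Rpl10a (-0.15), Rpl13a (0.03), Rpl15 (-0.11), Rpl24 (-0.02) and Rps10 (-0.17), named here after their values were seen. Of the value summed with pseudogenes, 1.38% was under the gene's own name for Rps10, 36.1% for Rpl13a and 36.3% for Rpl10a. Single values of these genes are therefore uncertain, as are those of some genes that passed, such as Rps19 (28.9%).

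Ranges were clear of each other for many of these genes. In 30 of 87 (34.5%) all 4 samples numbered 1 lay below all other 20, where 0.734% of all genes showed this. Within its own letter of 6 samples, A1 was the lowest for 81 genes (background 18.9%), B1 for 62 (19.3%), C1 for 68 (16.8%) and G1 for 70 (16.3%). All 4 samples thus took part, most of all A1.

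Rpl8 had the smallest p in number 1. Its values were 35711 in A1, 39067 in B1, 37560 in C1 and 38061 in G1, and the other 20 samples ran from 40081 to 49991 with a median of 44661. The groups did not overlap, and the log2 difference was -0.26 (SE 0.04, limma adjusted p = 0.000259).

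Rpl23a, which sits at the exit of the peptide tunnel where the signal recognition particle docks, had 3884 in A1, 3639 in B1, 3857 in C1 and 3801 in G1. The other 20 samples ran from 4054 to 5383 with a median of 4831, again without overlap, for a log2 difference of -0.33 (SE 0.05, limma adjusted p = 0.000325).

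In the small subunit, Rps19, the gene most often mutated in Diamond-Blackfan anaemia, had 4922 in A1, 6074 in B1, 5452 in C1 and 5421 in G1. The other 20 samples ran from 6265 to 8034 with a median of 7039. B1 came closest to the others but did not overlap them, and the log2 difference was -0.37 (SE 0.06, limma adjusted p = 0.000399). Rps28 had 5417, 5781, 5526 and 5791 in A1, B1, C1 and G1 and 6149 to 8248 in the others, at -0.32 (SE 0.05, limma adjusted p = 0.000437).

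Rps27, a zinc-finger protein of the small subunit also called metallopanstimulin, showed the lowest log2 difference among the genes that passed. It had 15560 in A1, 16147 in B1, 15134 in C1 and 15743 in G1, against 17040 to 25907 in the other 20, and a log2 difference of -0.38 (SE 0.06, limma adjusted p = 0.000628). It was also the gene that passed in number 6, with 25907 in A6, 22062 in B6, 21260 in C6 and 19759 in G6. There the log2 difference was 0.23 (SE 0.06, limma adjusted p = 0.0322). The samples of number 6 overlapped those of numbers 2 to 5, and the call was lost without A6 (0.16, adjusted p = 0.258), without B6 (0.22, adjusted p = 0.141) and without C6 (0.24, adjusted p = 0.0836).

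Proteins of the acidic stalk, which recruits elongation factors, were lower in number 1 as well. Rplp0, the stalk base, had 4742 ± 324 in number 1 (SD, n = 4), against 5255 to 6306 for the means of the other numbers, at -0.26 (SE 0.06, limma adjusted p = 0.00503). Rplp1 and Rplp2, which form the dimers that hang from it, fell by 0.30 and 0.27 on the log2 scale (limma adjusted p = 0.00429 and 0.000723). In number 2 the log2 differences were 0.23 for Rplp0 (limma adjusted p = 0.00598), 0.00 for Rplp1 (0.974) and 0.13 for Rplp2 (0.0535), of which the first passed. Whether the 3 differ from each other was not tested.

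Among members with known roles outside the ribosome, Rpl5, Rpl11, Rps6, Rps27a and Rps3 were lower in number 1, while Rpl13a, introduced above, did not pass (0.03, limma adjusted p = 0.857). Rpl5 and Rpl11, which carry 5S ribosomal RNA and inhibit MDM2, had log2 differences of -0.30 and -0.18 (limma adjusted p = 0.00116 and 0.0161). Rps6, the S6 kinase substrate, had 4577 ± 347 in number 1 (SD, n = 4) and a difference of -0.24 (limma adjusted p = 0.0113). Rps27a, the ubiquitin fusion, had -0.26 (0.00290), Rps3, which also acts in DNA repair, -0.25 (0.001004), and Rpl41, the smallest of these proteins, -0.21 (0.0191). Rpl10, which is needed to join the 2 subunits and carries the 12-base pyrimidine run shown above, had 25317, 25519, 26409 and 26196 in A1, B1, C1 and G1 and 28448 to 38122 in the others, at -0.31 (SE 0.06, limma adjusted p = 0.00138). Rpsa, outside the rule, had -0.25 (limma adjusted p = 0.00167) in number 1 and 0.22 (0.00252) in number 2.

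Genes both with and without the TOP motif at the annotated start were lower in number 1. Of the 23 genes with it, 22 were lower, with a median log2 difference of -0.27. Of the 41 matched genes without it, 34 were lower (median -0.24), and of the 23 without a promoter entry 17 (median -0.23). Rps26 and Rps7, both with the motif, had -0.34 and -0.27, and Rps19, without it at the annotated start, had -0.37. In number 2, 10 of 23, 22 of 41 and 9 of 23 were higher. The difference between these sets was not tested.

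The rise in number 2 was uneven among its 4 samples. A2 was the highest of its letter for 51 of the 87 genes (background 26.5%) and G2 for 73 (22.7%), but B2 for only 21 (18.5%) and C2 for 18 (20.5%). In letter B the sample most often highest was B6, for 36 genes (background 18.6%), and in letter C it was C4, for 50 (15.3%). In 2 genes, Rpl13 and Rpl15, all 4 samples numbered 2 lay above the other 20 (2.30%, against 1.11% of all genes).

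Rpl15, of the large subunit, had 6570 in A2, 5526 in B2, 5307 in C2 and 6261 in G2. The other 20 samples ran from 4259 to 5004, and the log2 difference was 0.33 (SE 0.05, limma adjusted p = 6.45e-05). The groups did not overlap, and the gene still passed without A2 and G2. In number 1 it did not pass (-0.11, adjusted p = 0.149). Rps2, at the entry of the mRNA channel, had 9135 in A2, 6200 in B2, 6911 in C2 and 6912 in G2, and 4894 to 6369 in the others. B2 lay inside that range, and the log2 difference was 0.37 (SE 0.06, limma adjusted p = 0.000254).

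Rpl18 had 15120 in A2, 12690 in B2, 12750 in C2 and 14478 in G2, and Rps20 had 14698, 10883, 11147 and 13237 in the same order. For both, A2 and G2 were above all samples of other numbers, which reached 13000 and 11071, and B2 was inside their range, as was C2 for Rpl18. The log2 differences were 0.25 for Rpl18 (SE 0.04, limma adjusted p = 0.000332) and 0.34 for Rps20 (SE 0.06, adjusted p = 0.000388). Without A2 and G2 they were 0.16 (adjusted p = 0.0898) and 0.17 (adjusted p = 0.141). Rpl18 also had the smallest adjusted p of the family in the F test over numbers (0.000421), and it was lower in number 1 (-0.18, adjusted p = 0.0101).

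The 7 paralogs encode alternative forms of single ribosomal proteins, several of them restricted to muscle or testis. Rpl3l, the form of RPL3 made in heart and skeletal muscle, had 663 in A4 and 137 in B4, and 6.61 to 50.02 in the other 22 samples. The summed value of 11 fast skeletal muscle genes was 93605 in A4 and 21871 in B4, and 1751 to 3783 in the other 22, so the same 2 samples led in both. The summed value of 10 cardiac muscle genes reached 69798 in number 4 and 28005 in number 5, and in number 5 Rpl3l was at most 25.3. The part of muscle tissue in the Rpl3l values was not tested. The levels of Rpl3l in number 4 were otherwise 9.49 in C4 and 8.09 in G4, and the gene passed no test by number (F test adjusted p = 0.336).

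Rpl39l, the testis form of RPL39, was the weakest of the family, with a median of 5.61. It reached 58.2 in A5 and 56.5 in C4, while the other 22 samples lay between 0.0514 and 11.2. Rpl10l, the testis form of RPL10, lay between 36.5 and 177.9 with a median of 89.3 and passed in no number. Rps4l, named as a further form of RPS4, was between 519.7 and 1200.5 with its lowest values in C4, C3 and G4, and an adjusted p of 0.0841 in the F test over numbers.

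Rps27l, a paralog of RPS27 that is a known p53 target, was the only one of the 7 paralogs that passed in a number. It had 2461 in A2, 1673 in B2, 1775 in C2 and 1921 in G2, and 1325 to 1709 in the other 20. B2 lay inside that range and the other 3 above it, for a log2 difference of 0.37 in number 2 (SE 0.07, limma adjusted p = 0.000446), or 0.23 without A2 and G2 (adjusted p = 0.0766). Unlike Rps27, it did not pass in number 1 (-0.12, adjusted p = 0.287), with 1350 in A1, 1504 in B1, 1440 in C1 and 1546 in G1. The difference between the 2 paralogs was not tested. Rpl22l1, a paralog of RPL22, had 0.20 in number 2 (adjusted p = 0.0523) and -0.04 in number 1 (adjusted p = 0.812). Rpl7l1, a nucleolar relative of RPL7, was among the steadiest genes of the family, between 1744 and 2441, with log2 differences of 0.00 in number 1 and 0.06 in number 2, neither of which passed.

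**Figure D3:**
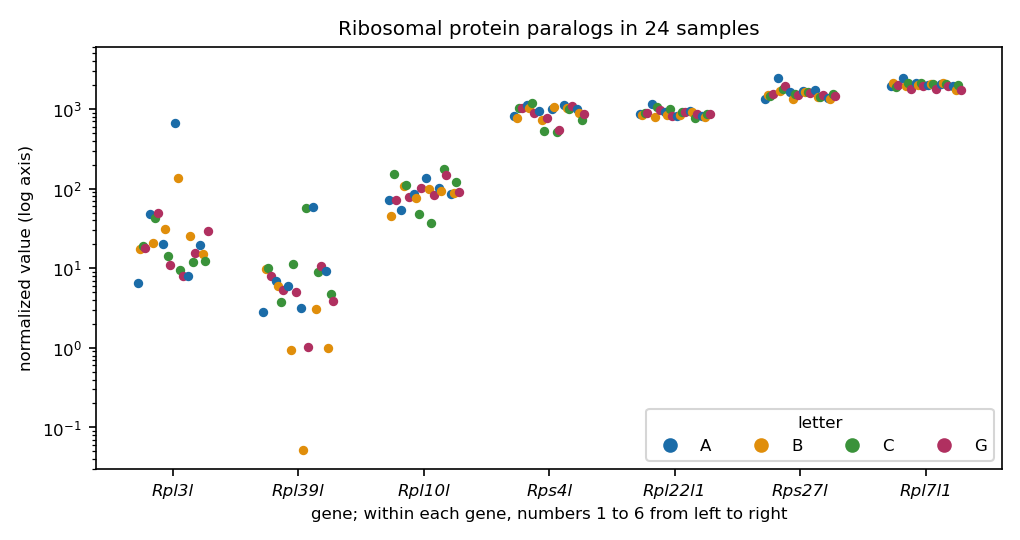
Normalized values, on a log axis, of the 7 ribosomal protein paralogs in the 24 samples, coloured by letter, with numbers 1 to 6 from left to right within each gene. Rpl3l is high in A4 (663) and B4 (137) and Rpl39l in A5 (58.2) and C4 (56.5), whereas Rps27l is highest in A2 (2461).

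Among genes with a mean of at least 100, those with the largest SD of log2(value + 1) were Rpl6l, Rps4l, Rpl24, Rpl38 and Rps27, and those with the smallest included Rpl13a, Rpl7l1, Rpl10a and Rps4x. Rpl6l, a copy of Rpl6, had 572 in G3 and 551 in G6, and 157.0 to 267 in the other 22 samples, with 226 in G5 and 211 in G2 of the same letter. Rpl24, a protein at the interface of the subunits, had its lowest values, 160.1 and 140.8, in B2 and C2 and its highest in A4 (349) and G2 (347), and passed in no number. Rpl38, with 205 in A1, 304 in B1, 228 in C1 and 246.5 in G1, had a difference of -0.36 in number 1 (SE 0.09, limma adjusted p = 0.0114), and B1 lay inside the range of the other 20 samples (274 to 362). Rps4x and Rpl10a had log2 differences in number 1 of -0.16 and -0.15, of which the first passed (limma adjusted p = 0.0441, and 0.0664 for Rpl10a).

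How reads were divided between genes and pseudogenes limits what a single value means. The submitters' processing notes name the mouse build GRCm38, and the gene names in the table are mouse ones, with 43 names of the mouse H2 complex, 0 of the rat RT1 complex and 10053 predicted genes named Gm. Another 264 genes in the table carry names of ribosomal protein pseudogenes, and 252 of these belong to 59 of the 87 members. Over these families 70.9% of the summed value was under the gene's own name. The share was at least 90% in 20 families and under 50% in 13, with a median of 75.9%. Whether the values are corrected for length is not stated, so the shares describe where the signal was counted and not relative expression.

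The extremes show how much this matters. Rps10, of the beak of the small subunit, had a mean of 77.3, while Rps10-ps1 had 5072, so that 1.38% of its family was under the gene's own name. The shares were 5.26% for Rpl38, 9.66% for Rps15a, 13.0% for Rpl9 and 28.9% for Rps19, where Rps19-ps6 had 16445 against 6797 for the gene. Many pseudogene names were lower in number 1 as well. Rps10-ps1 had a log2 difference of -0.22 (limma adjusted p = 0.00285), where Rps10 itself had -0.17 and did not pass (adjusted p = 0.371), and Rps19-ps6 had -0.31 (adjusted p = 0.000765). Of the 264 pseudogene names, 81 were lower in number 1 and 0 higher (median -0.26), where 6.25% of all genes were lower and 5.62% higher. In number 2, 32 were higher and 3 lower (median 0.05), where 11.5% of all genes were higher and 10.3% lower. The 32 higher names are thus close to the share over all genes. When each gene was summed with its pseudogenes, the counts for the 87 were 74 in number 1, 40 in number 2 and 73 in the F test. Rps10, Rpl38, Rps15a, Rpl9 and the other 9 genes below 50%, among them Rpl13a (36.1%) and Rpl10a (36.3%), are therefore uncertain as single genes.

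**Figure D4:**
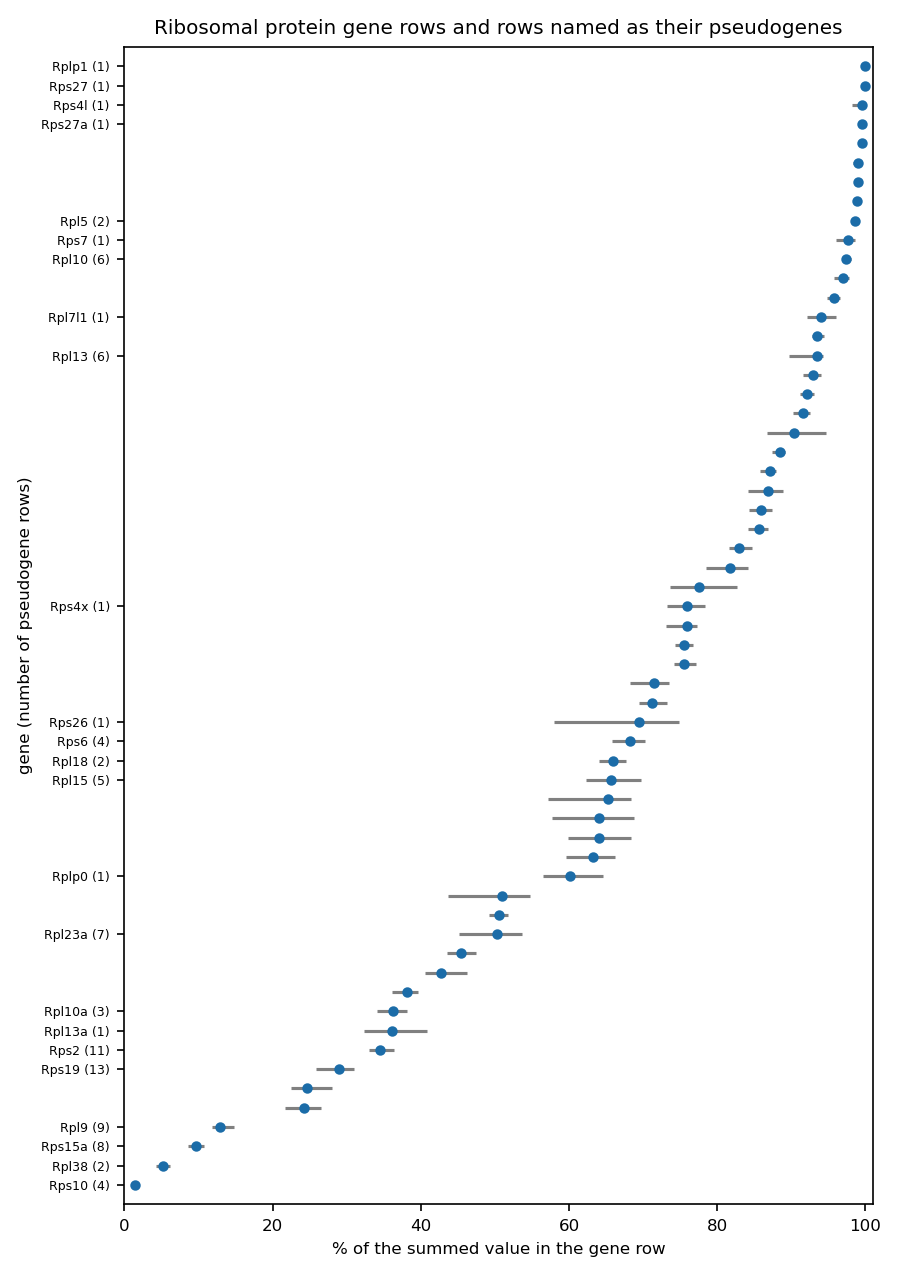
Share of the summed value of each gene and its pseudogenes that was counted under the gene's own name, for 59 genes, with the share of the mean values as a point and the range over 24 samples as a line, labelled (with the number of pseudogenes) only where the text names the gene. The shares run from 1.38% in Rps10 to over 99% in Rplp1 and Rps27.

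Genes around the ribosome were counted in the same 2 comparisons, from lists chosen by function. The counts below stand beside 6.25% lower and 5.62% higher of all genes in number 1, and 11.5% higher and 10.3% lower in number 2. Of 16 translation factors and related proteins whose mRNAs are known to carry the TOP motif, 6 were lower in number 1 (Eef1a1, Eef1b2, Eef1d, Tpt1, Pabpc1 and Eif3h), none higher, with a median log2 difference of -0.16. Pabpc1, the poly(A)-binding protein, had -0.21 (limma adjusted p = 0.00659) and Tpt1, a growth-related protein, -0.24 (adjusted p = 0.00773). In number 2, 6 of the 16 were higher. Of 4 cytosolic ribosome genes with other names, 2 were lower in number 1, Fau at -0.24 (adjusted p = 0.00189) and Rack1 at -0.20 (adjusted p = 0.00852).

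The genes that assemble ribosomes were counted next. Of 25 nucleolar assembly genes 0 passed in number 1 (limma with Benjamini-Hochberg adjustment, 1 at an unadjusted p under 0.05, median -0.02), whereas 11 were higher and 1, Dkc1, was lower in number 2 (median 0.22). Npm1, the nucleolar chaperone nucleophosmin, had 0.40 in number 2 (adjusted p = 0.000357) and -0.09 in number 1 (adjusted p = 0.494). Of 13 genes of RNA polymerase I and ribosomal RNA synthesis, 0 passed in number 1 (3 unadjusted), and the 2 that were higher in number 2, with none lower (median 0.07), are close to the share over all genes. Of 77 mitochondrial ribosomal proteins, 0 passed in number 1 (7 unadjusted, median -0.02) and 24 were higher in number 2 (median 0.13). Of 75 nuclear subunits of the respiratory chain, 1 was higher and 2 lower in number 1 (median -0.03), and 36 were higher in number 2 (median 0.14). The share of the total from mitochondrially encoded genes was 0.278% to 0.366% in number 1 and 0.330% to 0.473% in the other samples.

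In the list of mTORC1 components, LARP1, S6 kinases and Myc, 3 of 16 were lower in number 1 and none higher, while 2 were higher and 4 lower in number 2. The medians were -0.02 and -0.01, against -0.02 and 0.01 over all genes, and the 2 higher genes are about the share over all genes (11.5%). Eif4ebp1, which encodes the translation repressor 4E-BP1, had -0.32 in number 1 (limma adjusted p = 0.00247) and 0.41 in number 2 (adjusted p = 0.000134). Larp1 had 0.02 (adjusted p = 0.857) and 0.28 (adjusted p = 0.000746), and Deptor, an inhibitor within the mTOR complexes, -0.12 (adjusted p = 0.363) and -0.49 (adjusted p = 8.91e-05).

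**Figure D5:**
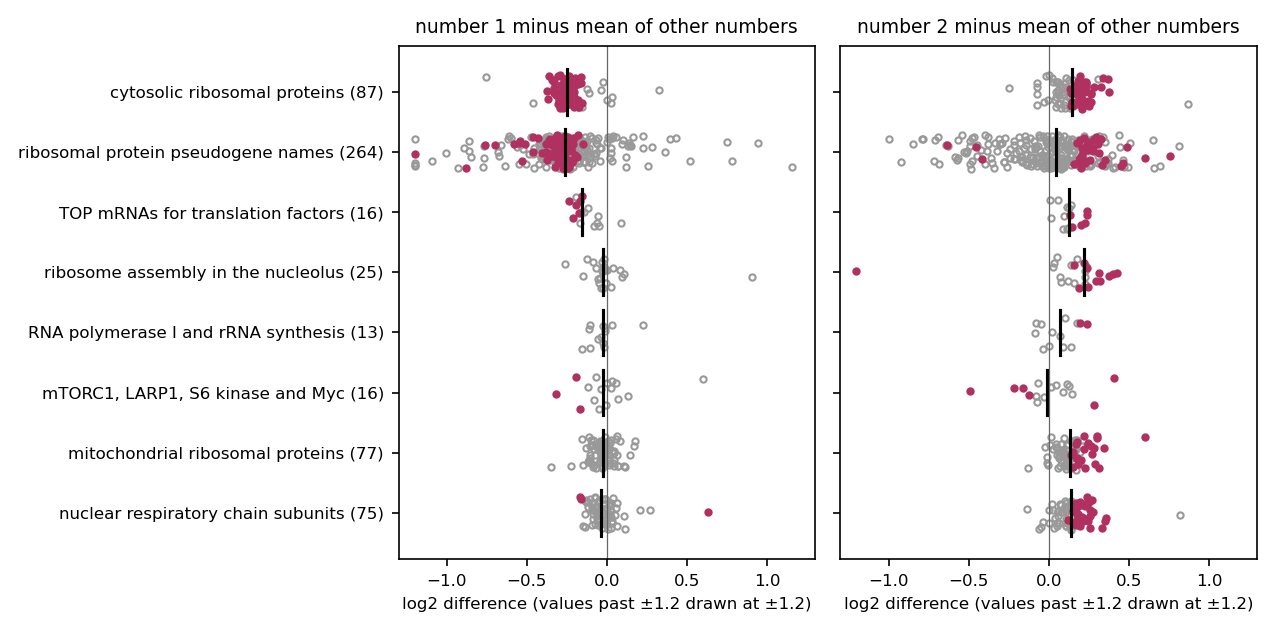
Log2 difference of number 1 (left) and number 2 (right) from the mean of the other 5 numbers for each gene of 8 lists, with filled red points for an adjusted p under 0.05, open grey points for the rest and a black bar at each list's median. In number 1 the cytosolic ribosomal proteins and their pseudogene names have medians of -0.25 and -0.26, while the mitochondrial ribosomal proteins have -0.02.

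Markers of several cell types differed in these numbers, where 6.25% of all genes were lower and 5.62% higher in number 1, and 11.5% higher and 10.3% lower in number 2. In number 1, 5 of 6 red blood cell, 4 of 8 T and NK cell, 2 of 8 B and plasma cell, 2 of 6 macrophage and 2 of 7 neutrophil genes were lower, and 3 of 7 endothelial and 3 of 8 proliferation genes were higher. The summed level of the B and plasma cell genes was 5138 to 9446 in number 1 and 7726 to 74695 in the others. Most of that sum was Jchain, with a mean of 20503, where Cd79a, the next highest, had 933. Of the 8 B and plasma cell genes, 3 had a log2 difference above 0 in number 1 and 5 below, with a median of -0.06. The summed level of the T and NK cell genes was 5617 to 7087 in number 1 and 5858 to 16339 in the others. That of the endothelial genes was 318722 to 351396 and 183116 to 339737. None of the alveolar type 1, alveolar type 2, club cell, fast skeletal muscle or cardiac muscle genes passed in number 1 (3, 0, 3, 0 and 0 at an unadjusted p under 0.05). In number 2, 8 of 8 T and NK cell, 7 of 8 proliferation, 4 of 6 macrophage, 4 of 8 alveolar type 2, 2 of 8 B and plasma cell and 1 of 7 neutrophil genes were higher, and 6 of 7 alveolar type 1, 6 of 7 endothelial, 5 of 6 red blood cell and 2 of 5 club cell genes were lower. The single neutrophil gene is close to the share over all genes. The summed level of the proliferation genes was 8176 to 19760 in number 2 and 5098 to 10291 in the others. Of all markers, Myh4, Cbr2 and Marco were listed at 0 in 1 sample each and Nppa in 8. The part of cell composition in the ribosomal protein values was not tested, and since each number holds 1 sample of every letter and nothing else is known of it, a shared origin, handling or sequencing run of samples with equal numbers cannot be told apart from any other property of that number.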

How the data were processed

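The authors deposited 1 table of normalized expression signal for 24 rat lung samples and 30667 genes. The unit of this signal is not stated, the values are not whole counts, and the normalization and counting tool are not given in the sources used here. The submitters' processing notes name STAR and the mouse build GRCm38, with no version or role. Since raw counts could not be recovered, count models were not used. Log2(value + 1) was fitted with limma 3.58.1 in R 4.3.3 (trend, all genes with a mean of at least 0.5, Benjamini-Hochberg adjustment over all 30667, threshold 0.05), with letters alone, or with numbers plus letters. The fit was tested on simulated data. Fold changes on the log2(value + 1) scale understate those of low genes. No 2 samples held identical values.

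The members and gene lists were chosen with earlier results of these data known. Genes named in the text are the paralogs, members with special roles, the 5 with the smallest p over letters and over numbers, the 5 with the largest and the 5 with the smallest SD, and up to 5 per comparison that passed. A ranking per coding length was not made, and some genes that this rule names are not reported here. Alternatives were quantile, 75th percentile and common-total scaling, a pseudocount of 0.1, a mean of at least 10, sample quality weights, the number as a block, no letter term and leaving out each sample. Sums with pseudogenes and fits without A2 and G2, A4 and B4, or number 1 were chosen after seeing the data.

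Samples with equal numbers were checked for pairing by the correlation of their deviations from the letter means over 21922 genes. All 6 pairs exceeded 0.1 in B against A (0.169 to 0.59) and in C against B (0.127 to 0.596), but not in the other 4 contrasts, where the lowest were 0.0725, -0.0452, 0.0912 and 0.0287 (C against A, G against A, G against B and G against C).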

Additional observations from a re-analysis of the deposited data

Results flagged for a closer look

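Within each letter of 6 samples, values that lay far from the other 5 were sought for the genes named by the gap to the nearest sample relative to the range. The summed share of the members was examined in the same way by letter and by number, and gave no such value. Of the 138 groups of values in all, 20 had such a value, and chance alone gives about 1 in 20. Samples numbered 2 held 11 of them and samples numbered 1 held 4. Many of the genes were named for differing in those numbers or for a large SD, so neither the count of such values nor where they fell is a test.

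In A2 the value stood above the rest of letter A for Rpl7l1 (2441), Rps27l (2461), Rpl15 (6570) and Rps2 (9135). In G2 it stood above the rest of letter G for Rps27l (1921), Rps6 (6607), Rps27a (21916), Rpl15 (6261), Rps20 (13237) and Rps4x (30524). In C2, Rpl3l (42.4) stood above the rest of letter C. Low values were found in number 1, for Rpl38 in A1 (205), Rpl6l in B1 (159.8), and Rplp1 (18333) and Rps27 (15743) in G1. The remaining values were paralogs, with Rpl3l in A4 (663) and B4 (137), Rpl39l in A5 (58.2) and C4 (56.5) and Rpl10l in G5 (149.0). The next highest sample of the same letter had 47.3, 31.3, 9.26, 11.2 and 100.9 in these 5 cases.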

How the results depend on the processing

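The counts of 0 by letter held under all alternatives run, with the number as a replicate block (0 in the F test and in all 6 pairs) and when any single sample was left out. In number 1 the count of 73 was 68 to 75 under the other scalings, filters and weights and 37 to 74 when single samples were left out. In number 2 the count of 41 was 18 to 46 when single samples were left out, 16 with quality weights, 3 without A2 and G2 and 21 without the samples numbered 1. In number 6 the count of 1 was 2 with quantile normalization, a common total or quality weights, 0 without A4 and B4 or without number 1, and 0 to 2 when single samples were left out. In number 4 the count of 0 was 4 with quality weights, 8 without A2 and G2 and 0 to 5 when single samples were left out, in number 5 it was 1 with quality weights, and in number 3 it was 1 without A2 and G2. The F test over numbers gave 49 to 73 against 71 when single samples were left out. It gave 13 without number 1, where fewer samples were tested. The shares over all genes given above are no background for the counts under these alternatives. The other causes were not tested. The depth of sequencing is unknown, so counting error could not be given. A count model could not be run without raw counts.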
